A study of Homo sapiens with 9 samples.

Results

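TBX2, TBX4, TBX5, TBX3 and FOXF1, the transcription factor genes that mark lung mesenchyme, were followed through the 3D contacts of their promoters in growing and RAS-induced senescent (RIS) fibroblasts. The genes were chosen by name, as 5 of 20097 protein-coding genes, with no threshold on a measured value, though earlier results of these data were known. Every 40 kb Hi-C bin within 1.5 Mb of a gene start was taken with them, which gave 234 of 75918 bins in 3 windows. Hi-C counts pairs of DNA fragments that lay close enough in the nucleus to be ligated. The cells were IMR90, a diploid fibroblast line from human lung, and all 5 libraries carried ER:HRAS(G12V), an oncogenic HRAS fused to the oestrogen receptor that 4-hydroxytamoxifen (4OHT) switches on. There were 3 libraries of growing cells without 4OHT and 2 libraries of RIS cells that had received 100 nM 4OHT for 6 days. An MSCV vector was present as well in growing replicate 3 according to its label. No Hi-C library of cells without the fusion given 4OHT was analysed here, so that oncogene, drug and arrest cannot be told apart, and whether the line is 1 clone is not given in the sources used here. Library values are listed in the order of the replicate numbers.

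T-box factors bind DNA through the domain that names them. TBX2 and TBX4, and likewise TBX5 and TBX3, lie side by side as products of an old duplication, and all 4 are expressed in the mesenchyme of the embryonic lung. TBX4 and TBX5 act in lung bud growth and branching. TBX2 and TBX3 are repressors that keep lung mesenchyme dividing and can hold back the cell cycle inhibitors CDKN1A and CDKN2A. FOXF1 is a forkhead factor that answers Hedgehog signals from the epithelium, and deletions in the gene desert upstream of it cause alveolar capillary dysplasia. Genes of this kind are often controlled over long distances by enhancers of their own contact domain. A border between domains lowers contact across it, frequently where CTCF and cohesin sit.

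All positions are in hg19, with gene models from GENCODE. TBX2 (ENSG00000121068, plus strand) lies at chr17:59477204-59486827 and TBX4 (ENSG00000121075, plus strand) at chr17:59529765-59562471, with starts 52561 bp or 2 bins apart. TBX5 (ENSG00000089225, minus strand) lies at chr12:114791716-114846247 and TBX3 (ENSG00000135111, minus strand) at chr12:115108060-115121980, with starts 275733 bp or 7 bins apart. FOXF1 (ENSG00000103241, plus strand) lies at chr16:86544133-86549028. The TBX2 start is 2796 bp from the upper edge of its bin and the TBX3 start 1979 bp from the lower edge, so for both genes the neighbouring bin also holds promoter-proximal DNA. A bin of 40 kb cannot separate a promoter from the other elements inside it. The windows held 23 protein-coding genes around TBX2 and TBX4, 17 around TBX5 and TBX3, and 23 around FOXF1.

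Depth was read from whole contacts recovered from the balanced values, and it ranged from 109967509 in RIS replicate 1 to 180775315 in growing replicate 3. Growing replicate 3 and RIS replicate 2 form a class with many duplicate reads in the study's alignment table, and dangling ends made up a larger share of both RIS libraries than of any growing library, so that this share and the condition cannot be told apart. A contact value is a mean over cells, and fewer cells with a contact and a weaker contact in each cell cannot be told apart. Hi-C gives no RNA level, so the fibroblast label could be checked only through compartments. All 10 fibroblast marker genes tested, COL1A1, PDGFRA and VIM among them, lay in the gene-rich A compartment in growing and in RIS cells, against 65.66% of all promoter bins in growing cells. Of 5 epithelial markers 4 did too, so this check does not separate the cell types.

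A border lay between the promoter bins of the paired genes and directly beside that of FOXF1. The sequences below are shown because each comes from the single 40 kb bin in which such a border lay. The 12-letter core of the CTCF motif was searched on both strands. Each border bin held 1 match, and 30.55% of the 69621 bins measured in all libraries held at least 1, so a match in a bin of this size is common. The matched word is in capitals within 9 bases of flank on either side, read 5′ to 3′ on the strand given, from GRCh37.
Between TBX2 and TBX4, chr17:59489901-59489912, plus strand, in an exon of LINC02875: ctcacaggtCCACGAGATGGCgctgcaggc
Between TBX5 and TBX3, chr12:115075116-115075127, minus strand, between genes: ctcgagtggCCACAAGATGGCtctcccggg
Above FOXF1, chr16:86570161-86570172, plus strand, in an intron of MTHFSD: ctgcatctcCCAACAGGGGGCctgaccaca
CTCF binding was not analysed here, and a match says only that these letters are present.

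Borders were placed at minima of the insulation score, the log2 mean contact across a bin within 520 kb to either side over the chromosome mean, with a prominence of at least 0.1. In each of the 5 libraries a border lay in the same bin between the promoter bins of TBX2 and TBX4 (chr17:59480001-59520000), between those of TBX5 and TBX3 (chr12:115040001-115080000), and directly above that of FOXF1 (chr16:86560001-86600000). The promoter bins of the paired T-box genes were thus divided by a border in growing and in RIS cells alike. That of FOXF1 was divided from the bin of FOXC2 and FOXL1, its forkhead neighbours. The bin of the TBX2/TBX4 border also holds most of the TBX2 gene, which ends at 59486827. Bins of 40 kb therefore cannot place the TBX2 gene body on 1 side of this border. The border between TBX5 and TBX3 was the deepest of the 3, with scores of -1.92, -1.91 and -2.04 in the growing libraries against -2.16 and -2.24 in RIS. Its score was lower in both RIS libraries than in any growing library (exact permutation test, two-sided, p = 0.1, the smallest that 3 libraries against 2 allow), and its prominence was 2.43 in the growing mean and 2.91 in the RIS mean. The border between TBX2 and TBX4 was the shallowest, at -0.70, -0.79 and -0.67 in growing and -0.51 and -0.58 in RIS libraries. Here the RIS scores were the higher ones, again without overlap (exact permutation p = 0.1), while its prominence was 1.14 in the growing mean and 1.21 in the RIS mean. The share of borders without overlap was not counted, and for promoter bins it was 65.9% in this score. With a 280 kb window this TBX2/TBX4 score turned direction, at -1.73 in the growing mean and -1.80 in the RIS mean, and the TBX5/TBX3 border was placed in the adjoining bin in both means. That adjoining bin holds most of the TBX3 gene. Stronger borders were present farther off, with growing prominences up to 1.91 in the TBX2/TBX4 window and 3.19 in the TBX5/TBX3 window. Next to FOXF1 the scores were -1.38, -1.22 and -1.32 in growing and -1.32 and -1.45 in RIS libraries, which overlapped.

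**Figure D1:**
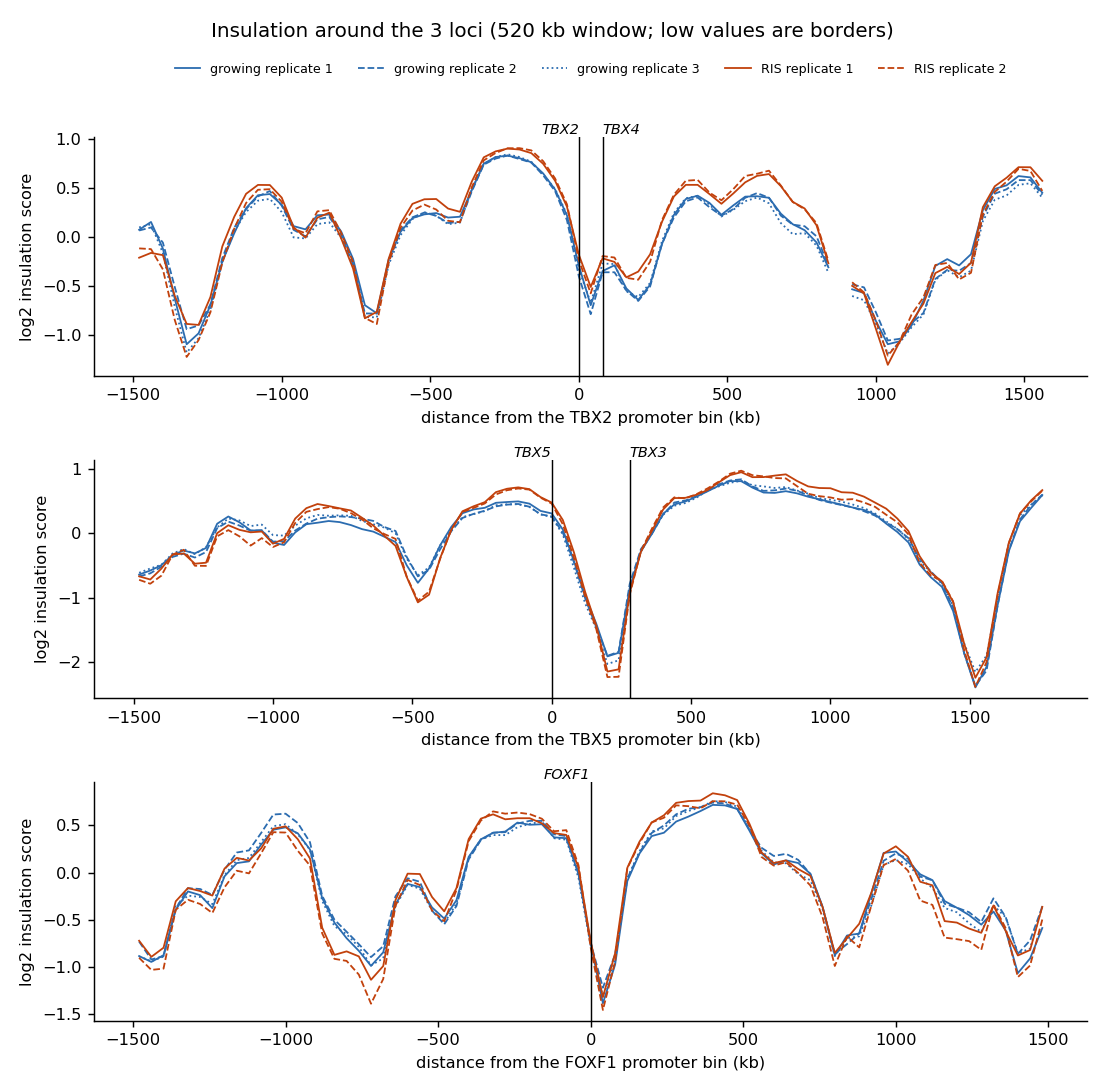
Log2 insulation score (520 kb window) in each library against the distance in kb from the TBX2, TBX5 or FOXF1 promoter bin, with promoter bins as black lines and growing libraries in blue, RIS libraries in orange. The deepest minimum beside a gene lies between TBX5 and TBX3, where the RIS libraries reach -2.16 and -2.24, and the line breaks off where bins had no values.

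Over the whole windows the mean matrices gave 7 borders in growing and 9 in RIS cells around TBX2 and TBX4, 4 and 6 around TBX5 and TBX3, and 8 and 8 around FOXF1. Every growing border of the 3 windows had a RIS border within 1 bin, so the arrangement of domains around the genes was shared. The counts of the 2 conditions differed by 4 in all, and by 2 with a 280 kb window or without RIS replicate 2.

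Seen from the promoters, the contacts were one-sided for 3 of the genes. Directionality is the log2 ratio of contacts toward higher over lower coordinates within 1.5 Mb. TBX2 sent 91.2%, 91.3% and 91.1% of its contacts to lower coordinates in the growing libraries against 87.6% and 92.3% in RIS, away from TBX4. FOXF1 sent 82.7%, 82.4% and 80.6% there in growing and 84.5% and 83.3% in RIS libraries, away from FOXC2. TBX3 turned the other way, away from TBX5, with 15.8%, 14.4% and 14.7% to lower coordinates in growing and 15.4% and 11.8% in RIS libraries. In growing cells TBX2 stood at percentile 0.0298 of all promoter bins in directionality, FOXF1 at percentile 0.455 and TBX3 at percentile 99.8. TBX4 and TBX5 were close to balance, with means of 41.9% and 48.5% to lower coordinates in growing and 42.9% and 51.5% in RIS cells. No member passed the test of a change in directionality, where 14% of all promoter bins did (6.88% higher, 7.12% lower), and the values of TBX5 and FOXF1 did not overlap between the groups (48.3% of all promoter bins).

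**Figure D2:**
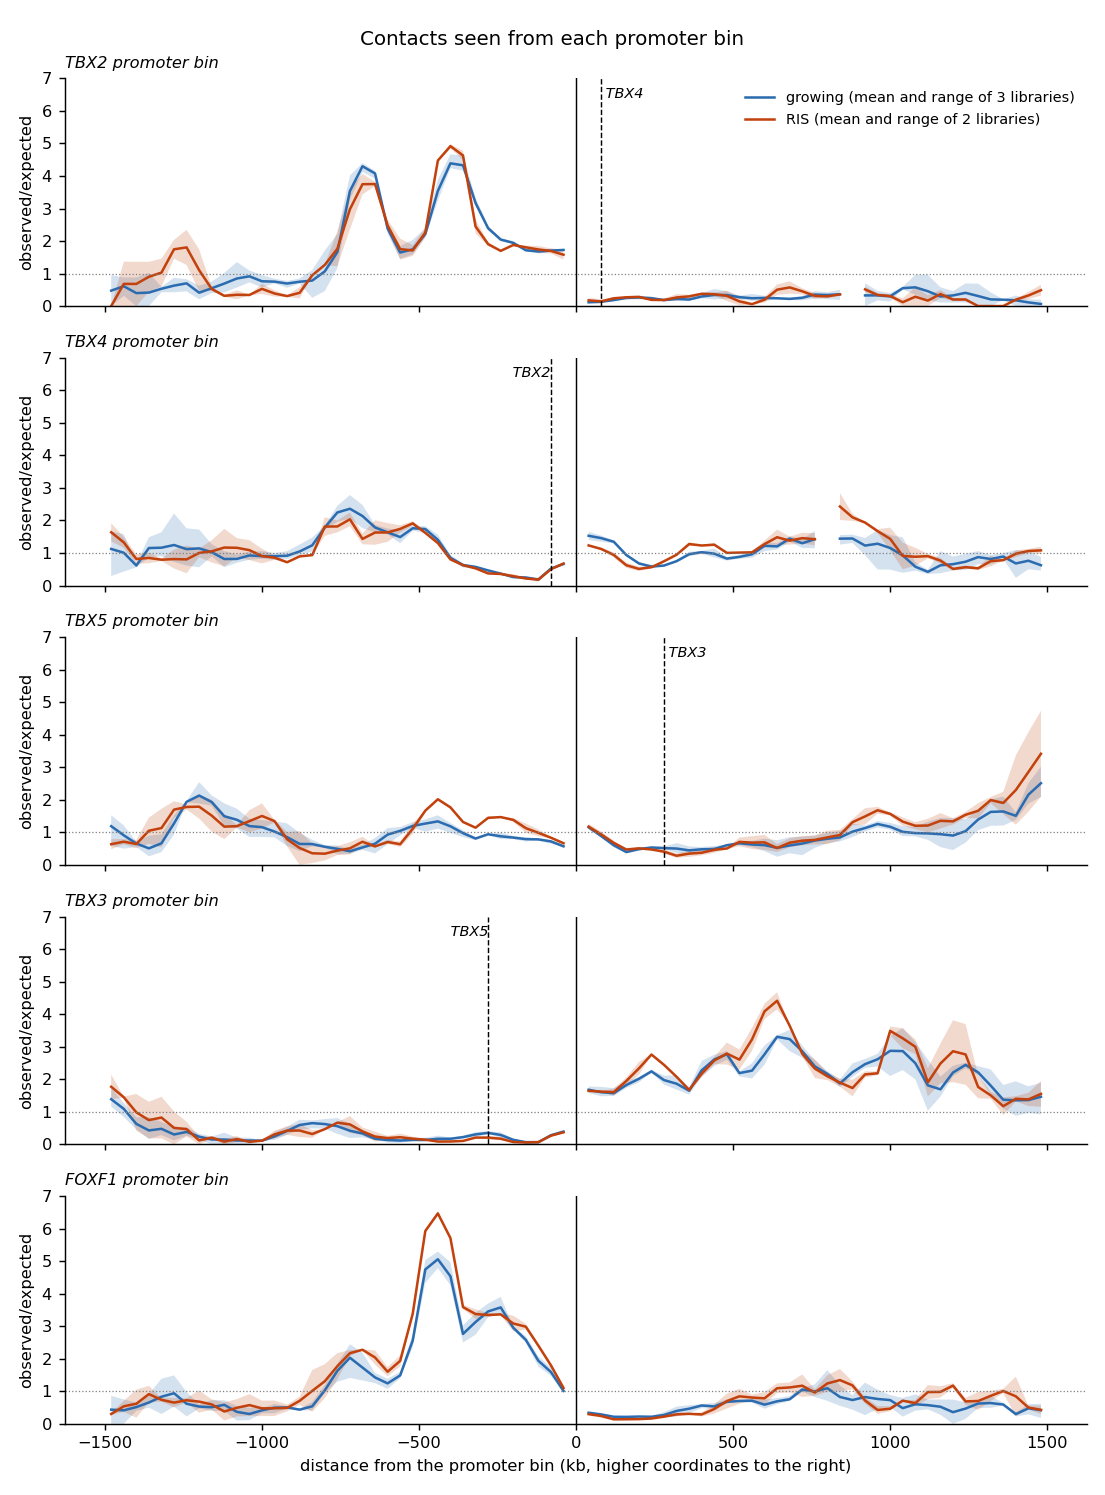
Observed over expected contact, as a mean of 3 neighbouring bins, against the distance in kb from the promoter bin of each gene, with lines for group means and bands for the range of libraries. TBX2 and FOXF1 contact lower coordinates and TBX3 higher coordinates, and the FOXF1 peak near -440 kb is higher in RIS cells, where the single bin is at a mean of 9.13 against 7.76.

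Bins beyond 200 kb with at least 20 contacts on average over all libraries, growing and RIS, were ranked by their observed over expected contact in growing cells. The highest lay inside the gene's own domain for TBX5 and TBX3, at the lower edge of the domain for TBX2, and across the border for TBX4. For FOXF1 it lay directly beside a weaker border, where the insulation score had a minimum in every library. This border (chr16:86040001-86080000) had a prominence of 0.37 in growing replicate 1, and its bin is the one 480 kb upstream of FOXF1. Observed over expected is the balanced contact over the mean of the chromosome at that distance. For FOXF1 the highest bin beyond 200 kb lay 440 kb upstream (chr16:86080001-86120000, which overlaps the long non-coding RNA gene ENSG00000261177), at 7.83, 8.13 and 7.31 times the expected contact in growing and 9.10 and 9.16 times in RIS libraries. Both RIS values were above all growing values, as they were in the next bin outward, 480 kb upstream, with means of 4.47 and 5.84 in growing and RIS cells. A further bin, 280 kb upstream, overlaps LINC01081, a non-coding gene of the FOXF1 upstream region, and stood at 4.05 ± 0.50 (SD, n = 3) in growing cells against 3.79 ± 0.88 (SD, n = 2) in RIS. For TBX2 the highest bins all lay in BCAS3, a large gene below it. The bin 680 kb below TBX2 had 6.46, 6.33 and 6.85 times the expected contact in growing and 6.03 and 4.50 times in RIS libraries. The bin 400 kb below had 5.25, 5.08 and 6.52 in growing and 7.93 and 7.83 in RIS libraries, and the bin next to it, 360 kb below, 4.74, 4.68 and 4.62 against 3.57 and 3.97. In RIS cells the bin 400 kb below was thus the highest of the 3. Chosen for their growing level, these bins are a description only. The share of all bin pairs without overlap between the groups was not counted. None of the pairs of these bins passed the pair test on balanced values given further on.

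TBX3 met the gene desert above it. Its highest bin lay 1040 kb away (chr12:116160001-116200000), with 2.26, 4.43 and 4.75 times the expected contact in growing and 5.50 and 5.72 in RIS libraries, from 12 to 30 contacts a library. TBX4 contacts were weaker and reached below TBX2 into the same parts of BCAS3, with 2.79 ± 0.36 (SD, n = 3) in growing cells against 3.12 ± 1.10 (SD, n = 2) in RIS at 760 kb. TBX5 had no bin beyond 200 kb with a group mean of 2 or more among the 5 bins with at least 20 contacts on average. All 5 of these bins were higher in the RIS mean. So were 3 of 8 such bins for TBX2, 8 of 12 for TBX4, 10 of 13 for TBX3 and 6 of 8 for FOXF1. The bins of a gene share 1 promoter bin, and the share over all bins was not counted. The largest of the 5 in growing cells, 400 kb below TBX5, was at 1.44, 1.26 and 1.22 in growing and 1.86 and 1.66 in RIS libraries.

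Near contact, the log2 observed over expected contact with bins 40 to 200 kb away, changed for 2 of the 5 members, where 21.1% of all promoter bins were called by limma at an adjusted p of 0.05 (15.3% higher, 5.82% lower). Over all promoter bins 2117 rose and 808 fell, against 866 and 1431 with the median subtracted in each library and 4093 and 670 with recovered contacts, so the balance of directions depended on the scaling. TBX5 rose and TBX4 fell. TBX5 was at -0.44, -0.33 and -0.34 in the growing and at -0.18 and -0.21 in the RIS libraries, a change of 0.17 ± 0.04 (SE) with an adjusted p of 0.0246. TBX4 was at -0.01, -0.08 and -0.04 in growing and at -0.27 and -0.23 in RIS libraries, and it fell by 0.21 on the log2 scale (SE 0.04, adjusted p = 0.00828). The groups of these 2 genes did not overlap (54% of all promoter bins). The values rest on 715 to 953 recovered contacts a library for TBX5 and 824 to 1468 for TBX4. Within the class with few duplicates the difference was 0.20 for TBX5 and -0.22 for TBX4, and within the class with many it was 0.13 and -0.19. TBX5 lost the call without growing replicate 1 (adjusted p = 0.0681) and without RIS replicate 1 or 2 (0.132 and 0.0751), and also with the library median subtracted (change 0.12, adjusted p = 0.0857) and with the replicate block (0.0556). TBX4 lost the call without RIS replicate 1 (adjusted p = 0.0657).

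The sides of the promoters were then taken apart, a split chosen after the data were seen. For TBX5 the contact with lower coordinates, where its gene body and downstream region lie, had a mean of -0.65 in growing and -0.37 in RIS cells, and that with higher coordinates, toward the border, -0.13 and -0.04. For TBX4 the lower side, toward the border and TBX2, was at -0.56 in growing and -0.57 in RIS cells. The higher side lies almost wholly beyond the end of the TBX4 gene. It was at 0.39, 0.27 and 0.34 in growing and at -0.02 and 0.05 in RIS libraries. The TBX4 difference thus lay on the side away from TBX2, mostly in DNA above the gene. TBX2, TBX3 and FOXF1 differed in near contact by -0.03 ± 0.04, 0.02 ± 0.05 and 0.09 ± 0.05 (SE), none past the threshold. With the recovered contacts in place of balanced values FOXF1 passed too (0.30 ± 0.07 (SE), limma, adjusted p = 0.00983).

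From 240 kb to just under 1.5 Mb no member passed, where 16% of all promoter bins did (7.89% higher, 8.07% lower, or 1090 and 1115 bins, against 894 and 582 with recovered contacts). The 2205 called bins fell whenever 1 library was left out, to 117 at the lowest and 601 at the highest. TBX5 (-0.14, -0.18 and -0.30 in growing, 0.05 and -0.05 in RIS libraries), TBX3 (0.35, 0.40 and 0.33 against 0.48 and 0.52) and FOXF1 (0.51, 0.67 and 0.57 against 0.77 and 0.77) were each higher in both RIS libraries than in any growing library. Their adjusted p-values by limma were 0.0702, 0.0902 and 0.0691, and 53.9% of all promoter bins showed no overlap. TBX5 passed with the duplicate class as a block (adjusted p = 0.0381) and FOXF1 with recovered contacts (0.0285). For TBX2 and TBX4 the groups overlapped, with differences of -0.04 ± 0.06 and 0.08 ± 0.06 (SE).

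At 1520 to 10000 kb, beyond the windows, FOXF1 fell, as 17.2% of all promoter bins did, while 2.51% rose and 19.7% were called in either direction. These 337 higher and 2309 lower bins became 964 and 1237 with the median subtracted in each library, and all 2646 called bins fell to 571 without growing replicate 2, 802 without RIS replicate 2 and 847 without growing replicate 3. It was at -1.82, -1.57 and -1.49 in growing and -2.24 and -1.99 in RIS libraries, a fall of 0.49 on the log2 scale (SE 0.13, adjusted p = 0.0466), where the median of all promoter bins was -0.11. FOXF1 was already among the lowest promoters, at percentile 2.47 in growing cells. The call was lost without any 1 of growing replicates 2 and 3 and RIS replicates 1 and 2 (adjusted p from 0.0741 to 0.158). It was also lost with the replicate block (0.0821) and with recovered contacts, where the change was -0.30 (0.229). With the library median subtracted FOXF1 was at an adjusted p of 0.0990, and TBX4 passed in its place (0.32 ± 0.08 (SE), limma, adjusted p = 0.0431). FOXC2 and FOXL1, which share 1 bin beyond the FOXF1 border, fell by 0.51 (SE 0.11, limma, adjusted p = 0.0272). Far contact of the T-box genes differed by 0.22 ± 0.11 for TBX2, 0.20 ± 0.09 for TBX4, 0.06 ± 0.07 for TBX5 and -0.14 ± 0.14 for TBX3 (SE). Groups did not overlap for FOXF1, TBX4 and TBX5 (55.5% of all promoter bins).

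**Figure D3:**
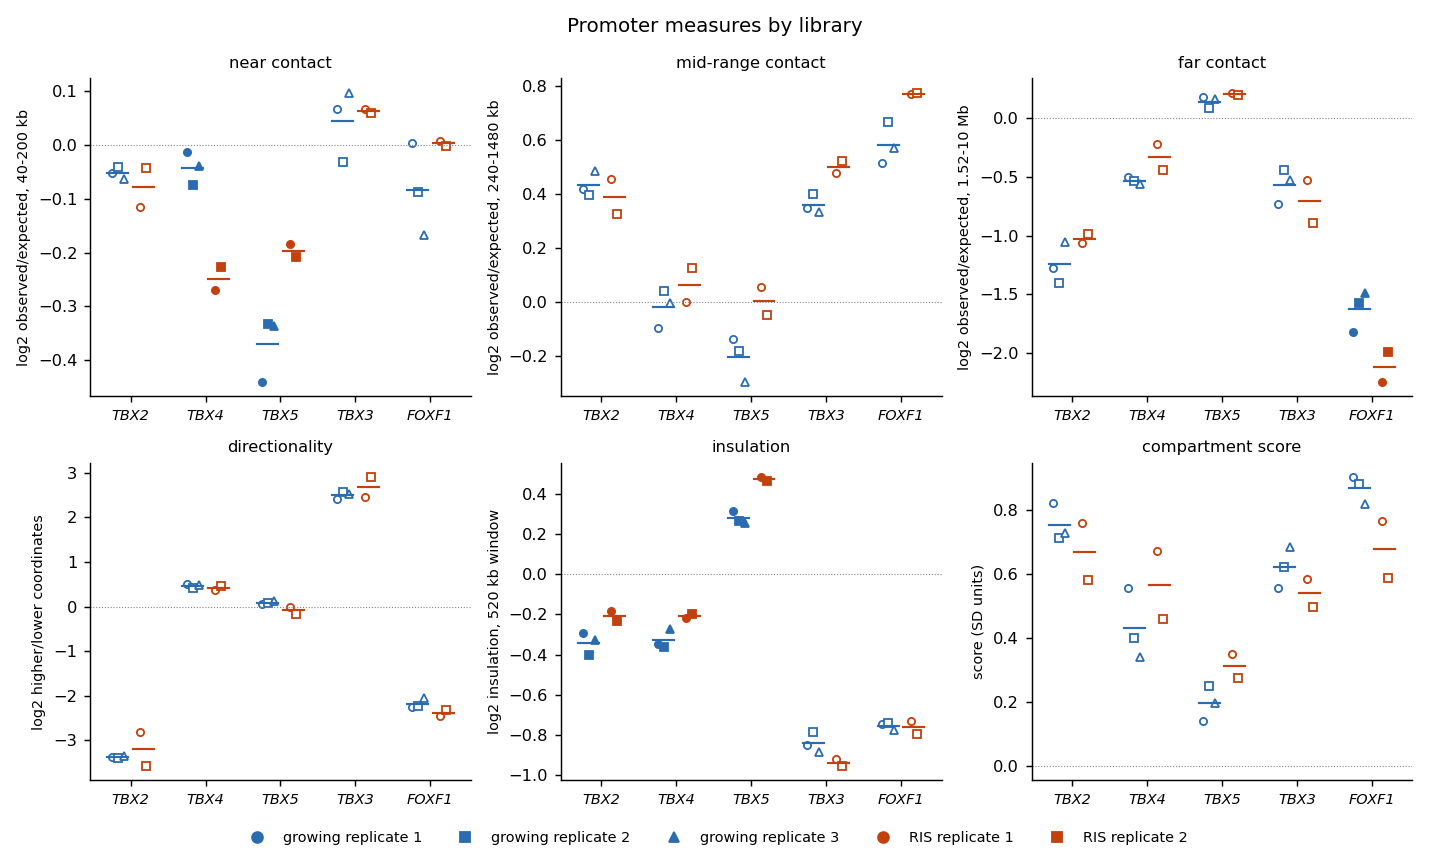
The 6 promoter measures of each gene, 1 point a library (circle, square and triangle for replicates 1, 2 and 3; growing in blue, RIS in orange) with bars for group means; filled points mark a gene that passed the test across all promoter bins. TBX5 and TBX4 moved in opposite directions in near contact, and TBX5 rose furthest in insulation, by 0.20.

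Insulation at the promoter itself rose for TBX5, TBX2 and TBX4, which means more contact across the bin. These were 3 of 5 members, where 41.9% of all promoter bins were called, 20.3% higher and 21.6% lower. TBX5 lay inside its domain, at 0.31, 0.27 and 0.26 in growing and 0.48 and 0.47 in RIS libraries (change 0.20 ± 0.04 (SE), limma, adjusted p = 0.00465). The promoters beside the shallow border, TBX2 (-0.29, -0.40 and -0.33 against -0.18 and -0.23) and TBX4 (-0.35, -0.36 and -0.27 against -0.22 and -0.20), changed by 0.13 ± 0.04 and 0.12 ± 0.04 (SE), with adjusted p-values of 0.0424 and 0.0442 by limma. TBX3, beside the deep border, was at -0.85, -0.79 and -0.89 in growing and -0.92 and -0.96 in RIS libraries (limma, adjusted p = 0.0885). FOXF1 differed by -0.01 ± 0.04 (SE), with a 95% interval from -0.08 to 0.07. The groups of TBX5, TBX2, TBX4 and TBX3 did not overlap, as for 65.9% of all promoter bins. Only the TBX5 call was kept in each of the 5 fits without 1 library, while the TBX2 and TBX4 calls were lost in most of them. With a 280 kb window the values of TBX2 and TBX4 turned to -0.08 ± 0.06 and -0.06 ± 0.05 (SE).

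All 5 promoters had positive compartment scores, on the A side, in every library. The score is the leading component of the contact correlation in 120 kb bins that best followed gene density, scaled to an SD of 1. It was the first component in 114 of 115 combinations of chromosome and library. FOXF1 was highest in growing cells, at 0.90, 0.88 and 0.82 in growing and 0.77 and 0.59 in RIS libraries, and TBX5 was lowest, at 0.14, 0.25 and 0.20 in growing and 0.35 and 0.28 in RIS libraries. For both genes the groups did not overlap (61% of all promoter bins), and no member passed the test, where 33.6% of all promoter bins did (20.8% higher, 12.8% lower, or 2904 and 1785 bins, against 2360 and 3151 with the median subtracted). The adjusted p of FOXF1 by limma was 0.0796, and 0.0232 after subtracting each library's median. TBX2, TBX3 and TBX4 had growing means between those of FOXF1 and TBX5 and overlapped between the groups. The region below TBX5, within its own borders, was not on the A side throughout. Its lowest block in growing cells, chr12:114480001-114600000, was at -0.88, -0.80 and -0.95 in growing and -0.10 and -0.25 in RIS libraries. A block picked for its low growing score favours a rise. The other blocks of this window with negative scores in all growing libraries, also outside these borders, were higher in both RIS libraries too.

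Contact between the paired genes was low. The TBX2 and TBX4 promoter bins, 80 kb apart, met at 0.11, 0.10 and 0.13 of the expected contact in the growing libraries against 0.30 and 0.09 in RIS, from 9, 9, 13, 20 and 8 recovered contacts. RIS replicate 1 stood alone, and the difference of 0.76 ± 0.44 (SE) on the log2 scale had an adjusted p of 0.529 by limma. It was 1.60 without RIS replicate 2 and -0.06 without RIS replicate 1. The TBX5 and TBX3 promoter bins, 280 kb apart, met at 0.71, 0.39 and 0.38 of the expected contact in growing and 0.45 and 0.29 in RIS libraries, from 18, 10, 10, 8 and 6 contacts. Their difference was -0.31 ± 0.36 (SE, limma, adjusted p = 0.757), with a 95% interval from -1.02 to 0.39.

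Relative to the expected contact at their distance, other promoters ranked above the partner gene in growing cells, though in number of contacts TBX2 met TBX4 more often than BCAS3 in all 5 libraries, and TBX3 met TBX5 more often than TPCN1 in 4 of 5. From TBX2, the promoter bin of BCAS3 had the highest contact among 20 protein-coding neighbours, 2.49 ± 0.14 times expected (SD, n = 3) in growing cells against 2.55 ± 1.81 (SD, n = 2) in RIS, from 3 to 7 contacts a library. From TBX5, the bin shared by TPCN1, a lysosomal cation channel, and IQCD led 16 neighbours in growing cells, with 2.34, 2.60 and 3.00 in growing and 1.77 and 1.92 in RIS libraries, and from TBX3 the same bin led 9 neighbours in growing cells, on 2 to 7 contacts a library. In RIS cells the order differed, with RBM19 at 2.52 and the bin of RITA1 and DDX54 at 2.38 as means from TBX5. From TBX4 the leading gene was RNFT1, on 0 to 2 contacts a library, which carries no comparison. Among the 4 leading TBX4 neighbours, RP11-51L5.7, 840 kb above TBX4, was at 1.43, 1.31 and 1.83 in growing and 2.91 and 3.12 in RIS libraries (limma, adjusted p = 0.299). NACA2, picked after its values were seen, lies 120 kb above TBX4, beyond the end of the TBX4 gene. Its contact from TBX4 was at 1.30, 1.24 and 1.39 in growing and 0.79 and 1.03 in RIS libraries (limma, adjusted p = 0.292). From FOXF1 the bins of C16orf74 (2.18 ± 0.80 (SD, n = 3) in growing against 1.49 ± 0.27 (SD, n = 2) in RIS) and of COX4I1 and EMC8 (2.16 ± 0.71 and 2.21 ± 0.24) were followed by IRF8, a factor of myeloid cells, at 1.25 ± 0.30 and 1.49 ± 0.65. The bin of FOXC2 and FOXL1, 80 kb above FOXF1 and across the border, also picked after its values were seen, was at 0.21, 0.22 and 0.22 in growing and 0.15 and 0.11 in RIS libraries (limma, adjusted p = 0.461). No promoter pair of any member passed the test. It covered 6 of 20 neighbours of TBX2, 15 of 19 of TBX4 and 11 of 16 of TBX5. For TBX3 it covered 4 of 9 and for FOXF1 12 of 22. The rest fell below the minimum mean scaled value of 5.

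Whole domains gave firmer values than single pairs. This comparison was added after the data were seen, and it took the domains between growing borders of prominence at least 0.5 on all chromosomes. The TBX5 domain (chr12:114400001-115040000) rose from 0.27, 0.27 and 0.25 in growing to 0.43 and 0.39 in RIS libraries, log2 observed over expected, a change of 0.15 ± 0.02 (SE, limma, adjusted p = 1.28e-05). The TBX3 domain (chr12:115080001-116360000) rose from 0.34, 0.36 and 0.34 to 0.45 and 0.42, by 0.09 ± 0.02 (SE, limma, adjusted p = 5.6e-04). Calls of this kind were common, with 61.8% of 2683 domains called, 41.9% higher and 19.9% lower. The balance depended on the scaling, with 1125 higher and 534 lower against 581 and 895 with the median subtracted in each library, where both calls were kept at 0.11 and 0.05. The TBX2, TBX4 and FOXF1 domains and the one above FOXF1 were not called, with differences of -0.05, -0.01, 0.02 and -0.03. The TBX2 domain (limma, adjusted p = 0.0541) passed as lower under 4 of 8 alternatives, and with the median subtracted in each library the TBX4 domain (-0.05, limma, adjusted p = 0.0404) and the one above FOXF1 (-0.07, adjusted p = 0.00469) did too.

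Contact across the border between TBX2 and TBX4, summed between the domains on either side (chr17:58800001-60480000), rose by more than contact in any of these domains or across the borders beside the other genes. It was at -0.39, -0.44 and -0.33 in growing and at -0.03 and -0.10 in RIS libraries, a change of 0.32 ± 0.05 (SE, limma, adjusted p = 0.00122) over 391 bin pairs, or 1.25 times on the linear scale. Across all 2623 borders 46.9% were called, 16.7% higher and 30.2% lower (439 and 791, against 625 and 707 with the median subtracted), and this change stood at percentile 98.1. Within the few-duplicate class it was 0.39 and within the many-duplicate class 0.24. Across the other borders the values overlapped, with changes of 0.04 ± 0.05 between TBX5 and TBX3 and 0.06 ± 0.05 above FOXF1 (SE).

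**Figure D4:**
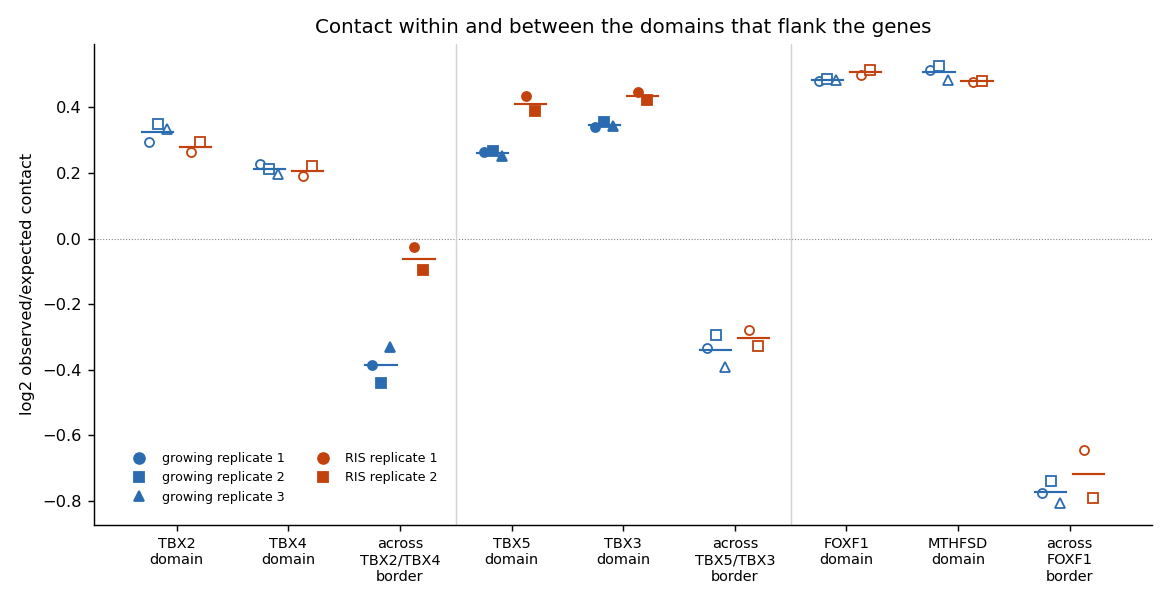
Log2 observed over expected contact, 1 point a library, inside the domains on either side of the border next to each gene pair or gene and across that border, with bars for group means and filled points for regions that passed. Contact across the TBX2 and TBX4 border is at -0.39 in the growing and -0.06 in the RIS mean, and the TBX5 and TBX3 domains are higher in both RIS libraries.

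**Figure D5:**
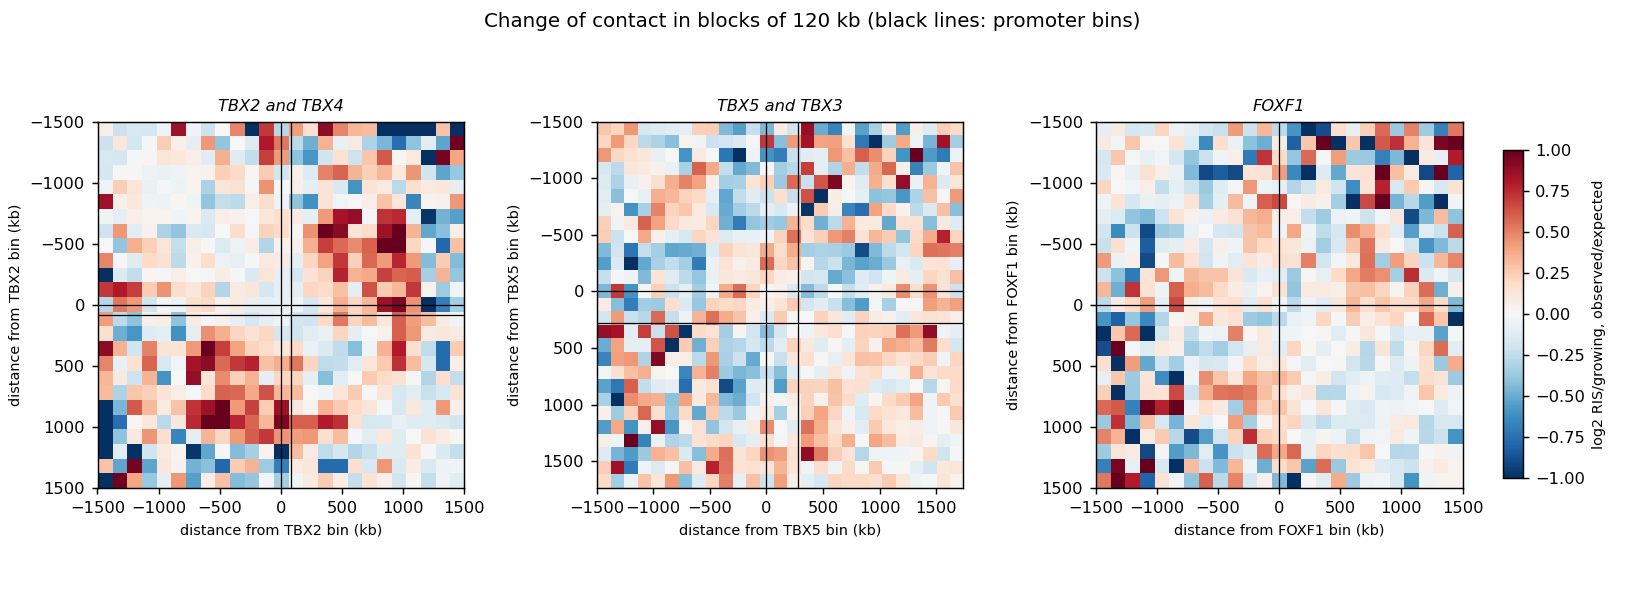
Change of contact around the genes as log2 of RIS over growing observed over expected means in blocks of 120 kb, both axes in kb from the first promoter bin, red for higher in RIS. The red area in the TBX2 and TBX4 map lies off the diagonal, across the border, and blocks far from the diagonal hold few contacts.

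Single bin pairs were tested last. On balanced values limma called 0 of 33, 52, 65, 47 and 45 pairs seen from TBX2, TBX4, TBX5, TBX3 and FOXF1, and 0 of 1456, 1851 and 1499 pairs inside the windows of TBX2 and TBX4, of TBX5 and TBX3, and of FOXF1. Of 1965472 pairs across all chromosomes it called 0.00402%, 0.000407% higher and 0.00361% lower. At an unadjusted p under 0.05 there were 7, 7, 8, 3 and 8 pairs from the promoters and 247, 291 and 185 in the windows, against 225450 over all tested pairs. With voom on the recovered contacts, which called 1.41% of all pairs, 0.951% higher and 0.456% lower, 8 promoter pairs passed, all higher in RIS: 2 from TBX5, 1 from TBX3 and 5 from FOXF1. Inside the windows voom called 79 of 1851 pairs around TBX5 and TBX3, all higher, 30 of 1456 around TBX2 and TBX4, of which 26 were higher, and 34 of 1499 around FOXF1, all higher. Around TBX5 and TBX3 these were 42 of 738 tested pairs below the border between the genes, 30 of 650 above it, and 7 of 463 that touched or crossed it. Around TBX2 and TBX4 they were 4 of 554 below (1 higher), 16 of 483 above (15 higher) and 10 of 419 across or on the border (all higher). Around FOXF1 they were 20 of 514 below, 14 of 516 above and 0 of 469 across or on the border. Recovered contacts are not corrected for bin coverage, and by voom the windows were shifted as a whole. The median voom change of all tested pairs was 0.14 around TBX2 and TBX4, 0.19 around TBX5 and TBX3 and 0.23 around FOXF1. On balanced values these medians were 0.11, 0.09 and 0.04. Over all chromosomes the voom median was -0.001. The direction depended on the test. In limma fits on balanced values that left out 1 RIS library, the calls inside the windows were mostly or all lower. Most calls over all tested pairs were lower in these fits too.

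The TBX5 pairs reached 200 and 240 kb below the promoter. At chr12:114640001-114680000, over LINC02459, TBX5 was at 0.55, 0.79 and 0.66 of the expected contact in growing and 1.15 and 1.34 in RIS libraries (voom change 1.00 ± 0.21 (SE), adjusted p = 0.00292). At chr12:114600001-114640000, with no annotated gene, the change was 0.71 ± 0.16 (SE, voom, adjusted p = 0.00657). The TBX3 pair lay 600 kb above the promoter (chr12:115720001-115760000), at 2.46, 3.32 and 2.95 in growing and 4.22 and 5.17 in RIS libraries (voom change 0.67 ± 0.17 (SE), adjusted p = 0.0196). Of the 5 voom fits without 1 library, 3 called the first TBX5 pair, 2 the second and 2 the TBX3 pair.

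The FOXF1 pairs with the largest voom changes lay 400, 160 and 80 kb upstream. The pair at 160 kb (chr16:86360001-86400000, over LINC00917) stood at 2.24, 2.43 and 1.88 in growing and 2.94 and 2.97 in RIS libraries (voom change 0.79 ± 0.14 (SE), adjusted p = 2.43e-04), and it was called in 4 of the 5 voom fits without 1 library. On balanced values its change was 0.45 ± 0.13 (SE, limma, adjusted p = 0.295). The pair at 400 kb changed by 0.84 ± 0.22 and that at 80 kb by 0.61 ± 0.17 (SE, voom, adjusted p of 0.0261 and 0.0329), and they were called in 1 and 0 of these 5 fits. On balanced values these changes were 0.54 and 0.35 (limma, adjusted p of 0.260 and 0.325). Without RIS replicate 1 voom called 0 of the promoter pairs, without RIS replicate 2 it called 3, and without growing replicate 1 it called 5.

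Contacts between the 3 windows, on different chromosomes, were few in number. The TBX5 and TBX3 window met that of FOXF1 in 19, 18 and 33 contacts in growing and 11 and 17 in RIS libraries, and that of TBX2 and TBX4 in 28, 26 and 32 and in 13 and 20 contacts. FOXF1 and the TBX2 and TBX4 window met in 45, 45 and 54 and in 58 and 43 contacts. Scaled for depth, this last pair was above the expected contact in all 5 libraries, at a log2 of 0.37, 0.10 and 0.47 in growing and 0.94 and 0.17 in RIS, while TBX5 and TBX3 were below it with FOXF1 (means -0.40 and -1.05) and with TBX2 and TBX4 (-0.85 and -1.22). The exact permutation p-values of the log2 observed over expected contact were 0.4, 0.4 and 0.6, and the groups overlapped in each case. With recovered contacts in place of balanced values the RIS libraries were below all growing libraries for TBX5 and TBX3 with FOXF1 (change -0.55, exact permutation p = 0.2) and with TBX2 and TBX4 (change -0.63, exact permutation p = 0.2). In this form of the test 0.2 is the smallest p possible. With only the bins within 480 kb of the genes 2 of the 3 differences turned direction, to 0.47 for TBX5 and TBX3 with TBX2 and TBX4 and to -0.87 for FOXF1 with TBX2 and TBX4.

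Other genes of lung mesenchyme and of the T-box family were read from the same fits. Of 35 lung mesenchyme genes, among them transcription factors and the ligands and receptors of Hedgehog, WNT and FGF signalling, 34 were tested. The list also holds NKX2-1, a factor of lung epithelium. In near contact 6 of them were called (17.6%, against 21.1% of all promoter bins; 4 higher, median change -0.01 against 0.04), in mid-range contact 5 (14.7%, against 16%; all higher, median 0.11 against 0.02), in far contact 7 (20.6%, against 19.7%), in directionality 8 (23.5%, against 14%), in insulation 9 (26.5%, against 41.9%) and in compartment score 8 (23.5%, against 33.6%; 6 lower, median -0.10 against 0.00). Of the calls in far contact 3 were higher and 4 lower, with a median change of -0.003 against -0.11, where 2.51% of all promoter bins rose and 17.2% fell. Of those in directionality 5 were higher and 3 lower, and of those in insulation 6 and 3. The sign of directionality follows genome coordinates and not the strand of a gene, so it gives no common direction over genes. The shares are over genes, and FOXC2 and FOXL1, which share 1 bin, both count among those called in far contact and directionality. HOXB5, a homeobox gene of lung mesenchyme, rose from a growing -0.27 ± 0.05 (SD, n = 3) to 0.31 ± 0.04 (SD, n = 2) in mid-range contact, in a bin shared with HOXB4. FGF10, the growth factor that TBX4 and TBX5 switch on in the lung bud, fell from -0.34 ± 0.10 (SD, n = 3) to -0.65 ± 0.08 (SD, n = 2) in near contact. In directionality RUNX1 and TWIST2 fell by 0.44 each and WNT2 rose by 0.42 on the log2 scale.

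Of 14 names of other T-box genes 13 were tested. In near contact 4 were called, all higher (30.8%, against 21.1% of all promoter bins). In mid-range and in far contact 1 each was called, in both cases lower (7.69%, against 16% and 19.7%). In directionality 5 were called (38.5%, against 14%), 4 of them higher, with a median change of 0.15 against 0.00, again in genome coordinates and not by strand. In insulation 6 were called (46.2%, against 41.9%), 4 of them lower, and in compartment score 3, all higher (23.1%, against 33.6%). TBX6 fell by 0.47 in insulation in a bin shared with PPP4C and YPEL3. EOMES rose by 0.53 and TBX1 by 0.38 in directionality, TBX19 rose by 0.23 in near contact, and TBXT, the gene of the notochord factor brachyury, rose from -0.97 ± 0.10 (SD, n = 3) to -0.47 ± 0.03 (SD, n = 2) in compartment score.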

How the data were processed

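IMR90 ER:HRAS(G12V) cells were profiled by Hi-C in 3 growing and 2 RIS libraries, called biological replicates by the study. Per the labels, the authors used FastQC and HiC-Pro on hg19. The deposited values are signal, ICE-balanced contacts per pair of 40 kb bins, made by the authors for each library after artefacts and duplicates had been dropped. Balancing evens out bin sums and library totals, so it removes depth and bin coverage. Chromosome ends matched GRCh37 for 23 of 23 chromosomes. A factor for each bin turned 100% of the values back into whole contacts (tolerance 0.05), 109967509 to 180775315 a library, used as depth and for alternatives. Capture Hi-C was not used, since 0 of the windows touched a captured region. There were 0 unused columns of per-sample values.

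Expected contact was the mean of the chromosome at each distance. The 6 promoter measures were fitted over all distinct promoter bins with limma (lmFit, eBayes with robust prior), growing against RIS without covariates. Bin pairs up to 2 Mb apart with a mean scaled value of at least 5 were fitted on log2(value + 0.5) after loess (span 0.3, 4 iterations), with a trended prior. This stands for the diffHic test of the study, which needs deposited counts. P-values were Benjamini-Hochberg adjusted over all features, with 0.05 as threshold. Intervals are 95%. Exact permutation tests of 3 against 2 libraries are two-sided and cannot give p below 0.1. For contacts between chromosomes the smaller tail was doubled, so there p cannot fall below 0.2. Alternatives covered normalization, pseudocount, filters, windows, blocks and each library left out. Leaving out a library of RIS leaves 1, which limma takes to vary like the others.

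On simulated data, limma found 123 of 200 promoter insulation changes of 0.2 with 10 false calls, and 200 of 200 of 0.4 with 22 false calls, among 13440 bins. Of 200 pairs among 20000 changed by a log2 of 1, limma with a trend found 44 with 1 false call and voom 43 with 0. The members and lists were chosen with earlier results of these data known. The text names the 5 members, their neighbours with the highest growing contact (at most 4 a gene), bins passing a pair test (at most 3 a gene), the called list genes with the largest changes in units of each measure's SD (at most 5 a list), and the 2 promoter bins most like each member. Bins of highest growing contact and regions across borders were added after the data were seen. The fits ran in limma 3.58.1 (R 4.3.3) and all else in Python 3.11.15 (scipy 1.17.1, pandas 2.3.3, numpy 2.4.6).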

Additional observations from a re-analysis of the deposited data

How the results depend on the processing

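The number of members called was 0 to 2 for near contact when each library was left out in turn (2 with all libraries), 1 with the replicate block and 1 with the library median subtracted. It was 0 to 1 for far contact (1 with all), and 0 with the replicate block or recovered contacts. For insulation it was 1 to 2 (3 with all) and 1 with a 280 kb window. For directionality it was 0 to 1 (0 with all), with TBX2 passing without RIS replicate 2. For mid-range contact it was 1 with the duplicate class as a block and with recovered contacts, and for compartment score 1 with the replicate block and 1 with the median subtracted, against 0. The shared replicate numbers are only names, and with them as a block 0 promoter bins of all were called in mid-range or far contact, while the TBX5 near contact had an adjusted p of 0.0556 by limma and FOXF1 passed in compartment score at 0.0499.

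Over all promoter bins, leaving out a library gave 786 (without RIS replicate 1) to 2184 calls in near contact against 2925, 117 to 601 in mid-range contact against 2205, 571 to 1800 in far contact against 2646, 611 to 1005 in directionality against 1877, and 2134 (without RIS replicate 1) to 4399 in compartment score against 4689. Pairs inside the windows numbered 0 to 30 on balanced values with a library left out (16 without RIS replicate 1, all lower, and 30 without RIS replicate 2, of which 2 were higher), 2 by limma without a trend, both lower, and 143 by voom, mostly higher, with 16 to 108 when a library was left out. Promoter pairs by voom numbered 8, and 0 to 6 with a library left out. Across all chromosomes limma called 79 pairs, from 0 to 9204 with a library left out, 692 without a trend, 1 with the replicate block, 2 with the duplicate class as a block, 195 with a pseudocount of 2, 4 and 2 with minimum values of 10 and 1, and voom called 27643, from 2909 to 22677. The TBX2 and TBX4 contact ranged from -0.060 to 1.60 over the left-out libraries, from -0.0055 to 1.65 by voom, and was -0.0048 for gene bodies. The TBX5 and TBX3 contact by voom ranged from -0.61 to 0.15. The excess of RIS borders was 2 to 6 and 2 with a 280 kb window. With bins within 480 kb of the genes the contact between chromosomes was 0.47 for TBX5 and TBX3 with TBX2 and TBX4, and -0.87 for FOXF1 with TBX2 and TBX4. In the full windows the latter ranged from -0.15 to 0.63 over the left-out libraries.

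Values that turned sign were those of genes not called by limma, except TBX2 and TBX4 in insulation with a 280 kb window (-0.077 and -0.055), where TBX3 was at 0.051. FOXF1 insulation ranged from -0.040 to 0.025 over the left-out libraries, and was 4.87e-04 with the duplicate class as a block and 0.054 with a 1000 kb window. Near contact ranged from -0.064 to 0.010 for TBX2 and -0.019 to 0.045 for TBX3. It was 0.069 for TBX2 with recovered contacts, 0.060 with an expected value over all chromosomes, and -0.030 for TBX3 with the median subtracted. Mid-range contact ranged from -0.11 to 0.023 for TBX2, and was -0.0035 for TBX4 with recovered contacts. Far contact ranged from -0.32 to 0.039 for TBX3, and with the expected value over all chromosomes was -0.043 for TBX2 and -0.057 for TBX4. Directionality ranged from -0.20 to 0.55 for TBX2 and from -0.043 to 0.39 for TBX3. Compartment score ranged from -0.17 to 0.0047 for TBX2, and in 200 kb bins was -0.042 for TBX4 and 0.17 for TBX3. Contact ranged from -0.021 to 0.0091 in the TBX4 domain and -0.017 to 0.13 across the FOXF1 border, and was -0.016 in the FOXF1 domain with the median subtracted. The cause was not tested. The calls in the TBX5 and TBX3 domains and across the TBX2 and TBX4 border were kept under all 8 alternatives run for each. Single bin pairs rest on few contacts, which limits what they can show.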

Other observations

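In the group means, 4 RIS borders had no growing border within 1 bin, and none lay beside a gene of the set. At chr12:113400001-113440000, 1440 kb below TBX5, the insulation score was -0.58, -0.62 and -0.55 in growing against -0.72 and -0.78 in RIS libraries. At chr12:113560001-113600000 it lay at -0.31, -0.38 and -0.32 against -0.47 and -0.50. Both were found in both RIS libraries and in 0 growing libraries. With a 280 kb window the growing mean of TBX5/TBX3 also had borders within 1 bin of both. The other 2, at chr17:59040001-59080000 and chr17:60720001-60760000, had overlapping scores. The first was found within 1 bin in 2 of 3 growing libraries and both RIS libraries, and the second in 0 growing libraries and 1 RIS library.

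The promoter bins on other chromosomes whose RIS minus growing values lay closest to those of a member, over the 6 measures each divided by its SD over all promoter bins, were those of CASP5 with CASP1 and of TLE4 for TBX2 (distances 0.447 and 0.520), NKX2-8 and MEP1B for TBX4 (0.629 and 0.876), TAPT1 and FHL1 for TBX5 (0.659 and 0.70), ORM1 with ORM2 and ALOX12B for TBX3 (0.440 and 0.462), and FCHSD2 and LTF with RTP3 for FOXF1 (0.413 and 0.549). The median distance to all promoter bins was between 2.45 and 3.31. With 5 libraries behind each value, the likeness is a description.

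From the neighbouring bin, which also holds DNA close to the start, near contact of growing cells was 0.08 ± 0.03 (SD, n = 3) against -0.02 ± 0.05 (SD, n = 2) of RIS cells for TBX2, and -0.59 ± 0.08 and -0.60 ± 0.03 for TBX3.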
